A study of Mus musculus with 8 samples.

Results

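The very long genes described here were the 163 autosomal protein-coding genes of the GENCODE M1 annotation of mm9 with a protein-coding transcript that spans at least 500 kb, out of 21410 autosomal protein-coding genes. A further 15 genes of that span were left out because their symbols begin with Kcn, Cacn, Fox, Pcdh, Sema, Plxn, Eph, Unc5, Robo or Slit, or are Prkg1. Double-stranded breaks were mapped by DSB-seq, which labels broken DNA ends in fixed nuclei and sequences the labeled fragments, in mouse ES cells without Chd1 (genotype Chd1delta/delta, called Chd1 KO, an established line) and in control cells that keep 1 floxed allele (Chd1fl/delta). Both genotypes therefore lack at least 1 functional Chd1 allele, and both were grown in serum with LIF. The 2 replicates of each genotype were combined before peaks were called, so each genotype is represented by 1 list of peaks, and no value below has a replicate error. The intervals given are 95% intervals that cover counting error only.

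Genes of this size owe their length to introns, and their exons make up a small part of the transcribed region. Many of them encode adhesion molecules, receptors and scaffolds of synapses, and a single round of transcription through them takes many hours. Several lie at common fragile sites, regions that tend to break when replication is slowed, such as those of Fhit and Wwox. Chd1 is a chromatin remodeler that acts on nucleosomes near the transcription start site (TSS), and the comparison asked where along such genes breaks are found when it is absent.

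The spans of the 163 genes ran from 501.7 to 4435 kb, with a median of 734.5 kb. Just above the threshold were Edil3 (501.7 kb) and Rad51l1 (502.7 kb, now Rad51b), and just below it Ank3 (493.2 kb) and Abca13 (492.3 kb). Of these 4 genes, Edil3 had 1 Chd1 KO summit in its body, the other 3 had none, and none of the 4 had a summit near a TSS. The median number of annotated protein-coding TSSs was 3 (range 1 to 14), against 1 in other genes. The Chd1 KO list held 5671 peaks and the control list 54, called on combined libraries of about 29800000 and 27600000 reads as implied by the lowest local backgrounds of 3.18 and 2.95 reads. The weakest listed peak had 13 reads at its summit in Chd1 KO and 17 in control, and the lowest −log10 p-values were 4.88 and 7.13, so weaker breaks were not detectable in these lists.

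The sequence under the peaks at the starts of these genes was rich in G and C. All 49 Chd1 KO peaks at TSSs of very long genes held a run of at least 12 bases made only of G and C, and 27 held a run of at least 20. Within 300 bp centred on the summit, such runs were present at 100% and 44.9% of these summits. Among all autosomal Chd1 KO summits the shares were 94.7% and 51.0%, so the runs were not particular to very long genes. Peak GC content had a median of 76.75%, against 76.67% at TSS peaks of other genes. The lines below give the longest such run, with flanking bases, at the 5 genes with the highest fold enrichment at a TSS. Fold enrichment is the ratio of reads at the summit to the local background after the same small constant is added to both. It is therefore lower than the plain ratio of the reads and backgrounds given below. Each is written 5′ to 3′ on the strand of the gene, and capitals mark the runs of G and C of 12 or more bases. The stretches are centred on the run and not on the summit, which lies outside them in Cadps2, Fam190a and Anks1b.
Cadps2: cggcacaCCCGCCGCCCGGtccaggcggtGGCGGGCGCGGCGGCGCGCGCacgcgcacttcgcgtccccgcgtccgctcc
Atrnl1: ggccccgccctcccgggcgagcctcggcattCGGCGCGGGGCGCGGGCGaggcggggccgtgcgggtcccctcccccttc
Camta1: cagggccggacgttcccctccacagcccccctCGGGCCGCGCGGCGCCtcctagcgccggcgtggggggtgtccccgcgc
Fam190a: caCCCGCGGCCGCCGCGCGCCCCGCCCGCt
Anks1b: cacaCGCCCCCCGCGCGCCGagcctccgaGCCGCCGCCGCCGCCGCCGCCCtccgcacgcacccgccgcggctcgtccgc
In mm9 these are chr6:23789514-23789593 (minus strand), chr19:57685423-57685502 (plus), chr4:151235241-151235320 (minus), chr6:61130426-61130455 (plus, in an untranslated exon) and chr10:89335711-89335790 (plus). Runs of this kind, in which G and C are mixed without strict alternation, were the longest run under 47 of the 49 peaks, and at the remaining 2 the longest run held at least 12 copies of the same base in a row.

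GC runs were also found at very long genes without a summit, and these are shown for contrast. Nrg3 and Grip1 had the highest GC content around the outermost TSS (69.42% and 66.72% within 1 kb) among the genes without a TSS summit, and Cntnap2 and Lrp1b are the longest genes without any summit.
Nrg3: GCGCCCGCGCCCGCGCCCGGCCCGCGCGGC
Grip1: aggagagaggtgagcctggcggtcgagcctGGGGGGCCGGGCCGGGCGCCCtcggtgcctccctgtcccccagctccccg
Cntnap2: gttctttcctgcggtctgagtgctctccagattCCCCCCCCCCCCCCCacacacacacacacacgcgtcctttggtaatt
Lrp1b: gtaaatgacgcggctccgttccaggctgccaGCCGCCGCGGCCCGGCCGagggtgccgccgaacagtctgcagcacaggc
These are chr14:40286143-40286172 (minus strand, 30 bases of a run of 37), chr10:118891470-118891549 (plus), chr6:45009875-45009954 (plus) and chr2:42508354-42508433 (minus). The runs at Nrg3 and Grip1, a neuregulin that binds ErbB4 and a scaffold of AMPA receptors, were as long as or longer than that of Cadps2 (37 and 21 bases against 21), so a run of this length was present at genes on both sides.

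Chd1 KO cells had a DSB summit within 1 kb of a TSS at 45 of the 163 very long genes (27.6%, Wilson interval 21.3% to 34.9%). Among all autosomal protein-coding genes the share was 16.4%, and among the genes that are not very long it was 16.3%. The difference to the latter was 11.3 percentage points (Newcombe interval 5.0 to 18.6). No control summit lay within 1 kb of a TSS of any very long gene, and the limit of 3 counts then allows up to 1.84% (upper Wilson limit 2.30%), and the share among all genes was 0%.

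The higher share was not particular to the longest genes. It was 6.74% in genes under 10 kb, 17.5% from 10 to 50 kb, 32.5% from 50 to 100 kb, 34.1% from 100 to 200 kb and 31.3% from 200 to 500 kb. Against the last of these classes the very long genes differed by -3.7 percentage points (-10.9 to 4.34), an interval that holds 0. The 15 genes left out by symbol had a summit in 6 cases (40%, 19.8% to 64.3%). Very long genes have more TSSs, and each adds a window in which a summit can fall. With the outermost TSS alone the share was 24.5% against 15.0% in other genes, and among genes with 1 annotated TSS it was 9 of 24 (37.5%) against 11.2%. With more TSSs the direction varied, at 25.7% against 19.5% with 2 to 3 TSSs, 18.6% against 27.6% with 4 to 6, and 38.5% against 32.9% with 7 or more, and only the interval of the genes with 1 TSS (21.2% to 57.3%) leaves out the share of the other genes.

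**Figure D1:**
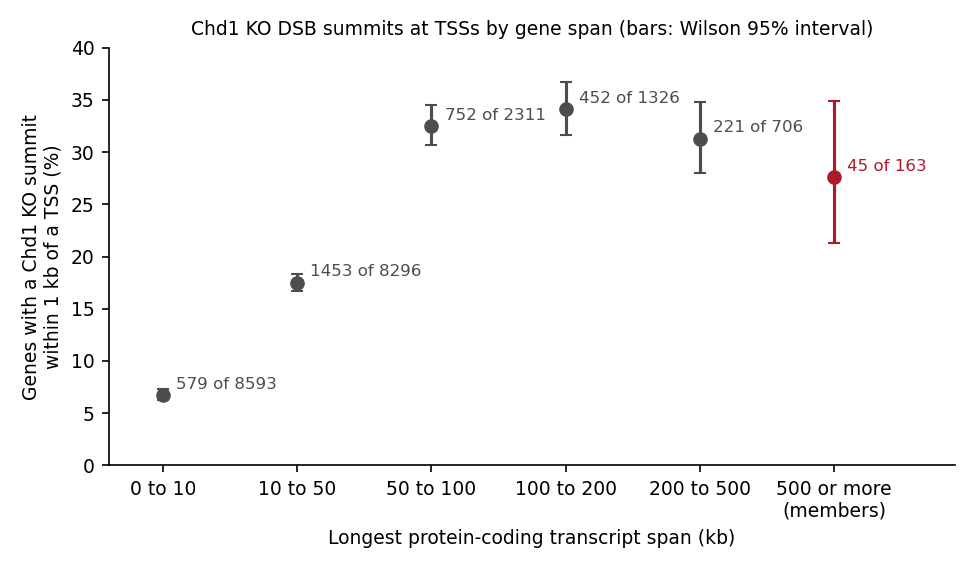
Share of autosomal protein-coding genes with a Chd1 KO DSB summit within 1 kb of a TSS (y axis, percent) against the span of the longest protein-coding transcript (x axis, kb), with the count beside each point and Wilson 95% intervals as bars. The share rises to about 100 kb, and the very long genes in red, at 27.6%, lie below the 3 preceding classes (32.5%, 34.1% and 31.3%), with an interval that overlaps theirs.

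Whether a very long gene had a summit at its start went along with base composition. Around the outermost TSS (1 kb to each side) the median GC content was 59.92% in the 45 genes with a TSS summit and 51.62% in the 118 without. At an outermost TSS of at least 60% GC, 22 of 40 very long genes had a summit there (55%, against 59.0% of other genes), and from 55% to 60% it was 15 of 37 (40.5%, against 28.3%). From 50% to 55% it was 2 of 32 (6.25%, against 9.82%), from 45% to 50% it was 0 of 29 (against 2.21%), and below 45% it was 1 of 25 (4.00%, against 0.107%). In genes of 100 to 500 kb the shares were 66.4% at 60% GC or more and 41.9% from 55% to 60%, each inside the interval of the very long genes (39.8% to 69.3% and 26.3% to 56.5%). Ptprd and Schip1 had a TSS summit although their outermost TSSs had the lowest GC content of the genes with a summit (35.18% and 39.48%). In both, the summit lay at another TSS, with 59.62% GC in Ptprd and 66.17% in Schip1.

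The length of the longest GC run gave nearly the same gradient in very long genes and in all others. None of the 36 very long genes without a run of 12 bases within 1 kb of a TSS had a summit, and the limit of 3 counts then allows up to 8.33% (upper Wilson limit 9.64%). With a longest run of 12 to 15 bases the share was 4 of 33 (12.1%), from 16 to 19 bases 9 of 34 (26.5%), from 20 to 27 bases 26 of 51 (51.0%) and from 28 bases on 6 of 9 (66.7%). In other genes the shares were 0.206%, 7.76%, 26.1%, 51.9% and 72.4%, each inside the interval of the very long genes. Of the 45 very long genes with a TSS summit, 32 had a run of at least 20 bases (71.1%), against 28 of the 118 without (23.7%). In other genes these shares were 63.5% with a TSS summit and 9.25% without, so the contrast was not particular to very long genes.

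**Figure D2:**
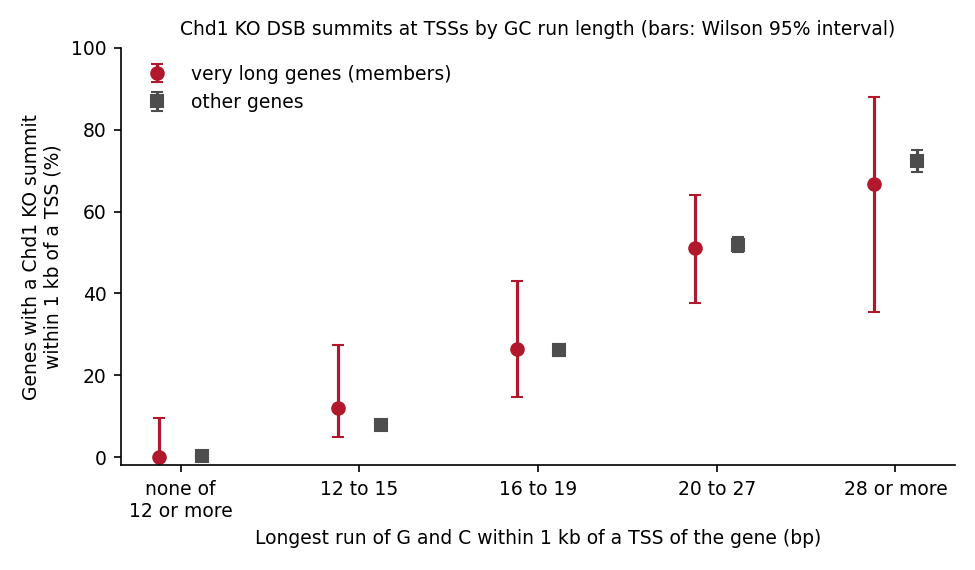
Share of genes with a Chd1 KO DSB summit within 1 kb of a TSS (y axis, percent) by the longest run of G and C within 1 kb of any of the gene's TSSs (x axis, bp), for very long genes (red circles) and other genes (grey squares), with Wilson 95% intervals. Both rise together, from 0% and 0.206% without a run of 12 bases to 66.7% and 72.4% with a run of 28 or more.

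The TSS summits lay mostly just inside the genes. Of the 49 summits, 33 were downstream of the nearest TSS and 16 upstream, with a median position of +140 bp and a middle range from -46 to +319 bp. In 42 of the 45 genes a summit lay within 1 kb of the start of a transcript of at least 500 kb. Position alone does not assign a break to that transcript. By annotation, 17 summits fell in an untranslated exon, 17 in an intron, 11 upstream of the gene and 4 in a coding exon. A TSS of another gene lay within 1 kb of 9 of the 49 summits, and for these the gene cannot be told apart from its neighbour.

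Fold enrichment at the TSS peaks ran from 3.24 to 7.41 with a median of 4.66, and the reads at the summit from 14 to 34 with a median of 20. TSS peaks of other genes had a median fold enrichment of 4.53 and a median of 21 reads, so the peaks of the very long genes were of like strength. The highest was that of Cadps2, which encodes a protein that primes dense-core vesicles for release, with 30 reads over a background of 3.18 (exact Poisson interval of the reads 20.2 to 42.8) and a fold enrichment of 7.41. Its summit lay 11 bp after the TSS. Atrnl1, an attractin-like membrane protein, followed with 31 reads and a fold enrichment of 6.58. Camta1, a calmodulin-binding transcription activator, had 34 reads and a fold enrichment of 6.01 at its outermost TSS and a second summit with 24 reads and 4.75 at an internal TSS. The Poisson intervals of these reads overlap, so the order of the leading genes is not resolved by the depth.

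The remaining genes of the 10 with the highest fold enrichment lay between 5.26 and 5.74. They were Fam190a (now Ccser1), the postsynaptic density protein Anks1b, the extracellular matrix protein Thsd4, the cyclin-dependent kinase Cdk14, the receptor tyrosine phosphatase Ptprt, the neurobeachin gene Nbea and the astrotactin Astn2. Their reads ran from 21 in Astn2 to 26 in Thsd4. At the other end, Dlgap2, a scaffold of the postsynaptic density, had the weakest TSS peak among the very long genes, with 16 reads and a fold enrichment of 3.24. Astn2, Camta1, Inpp4b and Lrba had 2 TSS summits each, and the other 41 genes had 1.

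**Figure D3:**
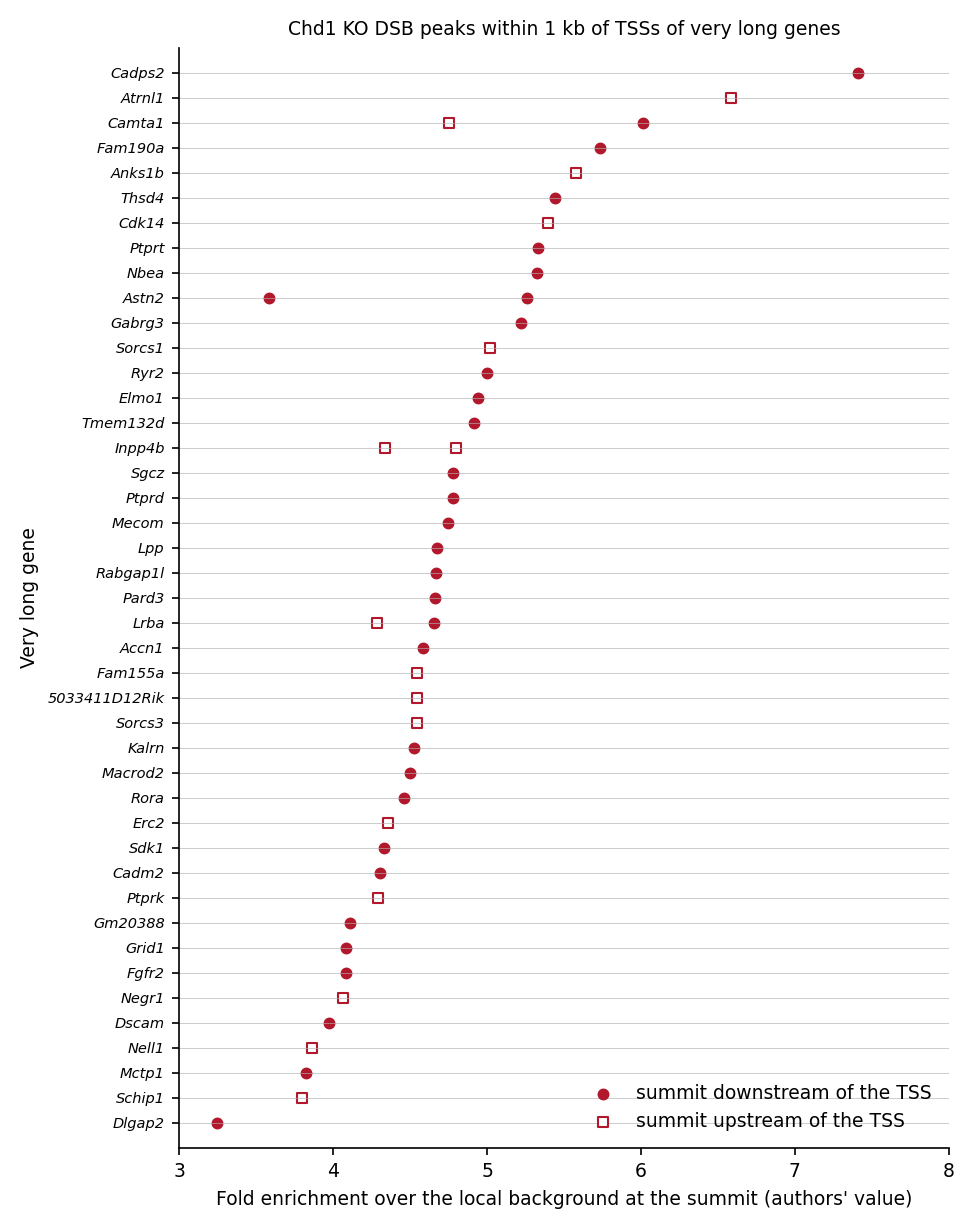
Fold enrichment at the summit (x axis, the authors' ratio of reads to local background, with a constant added to both) of 47 Chd1 KO DSB peaks within 1 kb of a TSS, by gene (y axis, 43 very long genes). Filled circles are summits downstream and open squares summits upstream of the TSS, and Cadps2 at 7.41 and Dlgap2 at 3.24 mark the ends of the range.

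By group, the share of very long genes with a TSS summit ran from 0% to 50%, with few genes in each group, and the difference between groups was not tested. Among scaffolds and release machinery of the synapse it was 7 of 14 (50.0%), with Cadps2 as the strongest, and the median GC content at the outermost TSS in this group was 61.79%. Receptor tyrosine phosphatases, which oppose tyrosine kinases at cell contacts, had a summit in 3 of 6, led by Ptprt with 25 reads. Neurotransmitter receptors had one in 3 of 7, led by the GABA-A receptor subunit Gabrg3 with 25 reads. The Wilson intervals of these 3 groups, 26.8% to 73.2%, 18.8% to 81.2% and 15.8% to 75%, all hold the 27.6% of the very long genes as a whole, and the last also holds the background of 16.4%.

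Adhesion molecules of the immunoglobulin superfamily had a TSS summit in 4 of 13 (30.8%), of which the sidekick gene Sdk1 was the strongest with 19 reads and a fold enrichment of 4.33. The list of channels and channel subunits had one in 1 of 6, the cardiac ryanodine receptor Ryr2, with 24 reads and 5.00. Accn1, an acid-sensing channel that was not on this list, also had one, with 22 reads and 4.58. Transcription and RNA regulators had one in 3 of 11, led by Camta1, and the list of kinases and other signaling enzymes in 3 of 14, led by Cdk14. The other 2 of these were Fgfr2 and Sgcz, and the list also holds the sarcoglycans Sgcz and Sgcd, which are membrane proteins and not enzymes. The Fgfr2 summit lay 872 bp inside its 1 transcript of 3009.1 kb and 137 bp from a TSS of Ctbp2, and cannot be assigned to either gene. Neurexins, their partners and teneurins had none in 14 genes, and the limit of 3 counts then allows up to 21.4% (upper Wilson limit 21.5%), and cadherins and catenins none in 5 (upper Wilson limit 43.4%). The median GC content at the outermost TSS of the neurexin group was 47.68%, the lowest of all groups, and the part of base composition in these shares was not tested. The 64 genes in none of the groups had a TSS summit in 19 cases (29.7%). Wilson intervals were 12.7% to 57.6% for the adhesion molecules and 3.01% to 56.4% for the channels. They were 9.75% to 56.6% for the regulators and 7.57% to 47.6% for the signaling enzymes. All of these hold both the 27.6% of the very long genes as a whole and the 16.4% of all genes. The upper limit of the neurexin group lies below the former and above the latter.

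Of the 15 very long genes whose human counterparts lie at common fragile sites, 5 had a Chd1 KO summit at a TSS (33.3%, 15.2% to 58.3%), against 27.6% of all very long genes and 16.4% of all genes. They included the neurobeachin gene Nbea with 22 reads and a fold enrichment of 5.32, the ADP-ribose hydrolase Macrod2 with 18 reads and 4.50, and the nuclear receptor Rora with 18 reads and 4.46. In their bodies, 4 of the 15 had a summit (26.7%, 10.9% to 52.0%), against 26.4% of all very long genes and 4.36% of all genes, and both intervals of the list hold the share of all very long genes. Those with a body summit included the tumor suppressor Wwox, the reelin adaptor Dab1 and Rora, with 2 summits each. No summit in either place was listed for 8 of the 15, including Fhit, Immp2l, Lrp1b, Ctnna3, Dlg2, Cntnap2 and Exoc4. Among them are the diadenosine triphosphate hydrolase Fhit (1611.9 kb) and Cntnap2 (2241.3 kb), a neurexin relative and the third longest gene of all, in which no peak was listed over the whole span.

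In gene bodies, meaning the span of the gene more than 1 kb from its own TSSs, 43 of the 163 very long genes had a Chd1 KO summit (26.4%, 20.2% to 33.6%), against 4.36% of all autosomal protein-coding genes. A long body offers more room for a summit, and the part of length in these shares was not tested. In genes of 200 to 500 kb the share was 22.8%, and the difference of 3.58 percentage points had an interval from -3.39 to 11.4. A summit at the TSS and in the body was found in 13 very long genes, at the TSS alone in 32, in the body alone in 30, and in neither place in 88. A body summit was thus present in 13 of the 45 very long genes with a TSS summit and in 30 of the 118 without. Whether this overlap departs from chance was not tested, and it was not counted among all genes.

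The body summits were unevenly spread, and 2 annotations held 51 of the 108. Gm20388 (chr8:122434741-126869622), known from 1 transcript of 4434.9 kb and without a RefSeq name, held 44 summits, and 38 other protein-coding genes lie inside its span on the same strand. The fibroblast growth factor receptor gene Fgfr2 (chr7:137305965-140315033) held 7, and its span of 3009.1 kb rests on 1 transcript, the next longest being 103.7 kb, with 15 other genes inside. These summits cannot be assigned to the long gene rather than to the genes inside it, and the 2 were set apart after the values were seen. In the other 161 genes, 41 had a body summit and there were 57 summits in all. Of these summits, 54 lay in introns, 50 more than 100 kb from the gene start and 5 within 1 kb of a TSS of another annotated gene. For the summit in Magi2, that other gene is a second entry of the same symbol. The values below refer to these 161 genes.

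Per length of gene, body summits were fewer in these 161 genes than in the shorter classes. The 57 summits in 134.6 Mb gave 0.423 per Mb (exact Poisson interval 0.321 to 0.549), against 0.936 in genes of 200 to 500 kb (0.811 to 1.07), 1.08 from 100 to 200 kb, 1.25 from 50 to 100 kb and 1.44 from 10 to 50 kb. These lengths are whole gene spans and include the windows around the gene's own TSSs, whose summits are not counted. The densities of the shorter classes are lowered most by this. The ratio to genes of 200 to 500 kb was 0.453 (exact interval 0.331 to 0.61). Genes with 5 or more others inside them had been left out of the very long genes alone, and leaving out the 3 of 706 such genes of 200 to 500 kb as well, also chosen afterwards, gave 0.451 (0.330 to 0.607). With Gm20388 and Fgfr2 included, the density was 0.76 per Mb and the ratio 0.813 (0.637 to 1.03). Along the genes the density was 0.290 per Mb between 50 and 200 kb from the outermost start, 0.476 between 200 and 500 kb and 0.407 beyond 500 kb, with overlapping intervals, and between 1 and 10 kb it was 1.38 from 2 summits (0.167 to 4.99).

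Long GC runs were also sparser in these bodies, and whether this bears on the density of summits was not tested. A run of at least 20 bases was held by 35 of the 57 body peaks. Runs of at least 20 bases more than 1 kb from every annotated TSS numbered 1.64 per Mb in very long genes and 3.42 in genes of 200 to 500 kb, a ratio of 0.482 (exact interval 0.412 to 0.561). The body GC content was 39.97% and 42.04%. A Chd1 KO peak covered 34 of the 217 runs in very long genes (15.7%, 11.4% to 21.1%) and 17.6% of those in genes of 200 to 500 kb, with 15.0% to 16.8% in the shorter classes. Shorter runs of 12 to 19 bases numbered 24.3 per Mb in very long genes and 35.4 in genes of 200 to 500 kb. Among them, 23 of 3204 lay under a peak in very long genes (0.718%, 0.479% to 1.07%), against 1.59% (1.33% to 1.90%) in genes of 200 to 500 kb.

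The runs under body peaks differed in kind from those at TSSs. The longest run alternated between C and G, with no CC or GG, under 22 of the 57 body peaks and under none of the 49 TSS peaks. Of these 22 peaks, 21 also held a repeat of CA (or TG on the other strand) of at least 20 bases, and none of the other 35 peaks did. Within 300 bp centred on the summit, a CA repeat was present at 36.8% of the body summits of very long genes and 21.0% of those of other genes, a difference of 15.8 percentage points (4.18 to 29.1). This difference rests on leaving out Gm20388 and Fgfr2, since over all 163 genes the share was 25 of 108 (23.1%), which exceeds that of other genes by 2.14 points (-5.34 to 11.3). Of consecutive windows of 300 bp along the very long genes, 3.24% held such a repeat, 0.789% a GC run of 12 bases and 0.0551% a GC run of 20 bases. At the body summits these GC runs were present in 86.0% and 57.9%, the latter against 58.6% in other genes. A G-quadruplex motif, which can overlap a GC run, 4 tracts of GGG with loops of 1 to 7 bases on either strand, was present at 47.4% of the summits and in 4.13% of the windows, against 59.4% of the body summits of other genes (-12.0 percentage points, -24.8 to 1.08). The kinds of run were chosen after the summits had been seen.

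Among the long GC runs in these bodies, the alternating ones were most often under a peak. A Chd1 KO peak covered 14 of the 18 alternating runs of at least 20 bases (77.8%, 54.8% to 91.0%), 10 of the 135 with at least 12 copies of 1 base in a row (7.41%, 4.07% to 13.1%) and 10 of the 64 others (15.6%, 8.71% to 26.4%). The alternating runs exceeded the rest by 67.7 percentage points (44.2 to 81.4). In genes of 200 to 500 kb the corresponding shares were 72.7%, 9.23% and 24.8%, each within the intervals of the very long genes.

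The body peaks of Dab1, Rora and Wwox, from the fragile-site list, show these kinds of sequence. The stretches below are centred on the longest run under each peak, and the summit lies outside them in the second of Dab1 and the first of Wwox. They are given 5′ to 3′ on the strand of the gene, with capitals for runs of G and C of 12 or more bases, and each lies in an intron.
Dab1, run under first peak: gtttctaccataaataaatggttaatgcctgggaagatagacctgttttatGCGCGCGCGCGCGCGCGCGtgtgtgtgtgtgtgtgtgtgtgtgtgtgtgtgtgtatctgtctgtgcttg
Dab1, run under second peak: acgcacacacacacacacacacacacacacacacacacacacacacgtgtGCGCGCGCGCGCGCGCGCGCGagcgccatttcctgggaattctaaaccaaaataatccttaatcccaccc
Rora, run under first peak: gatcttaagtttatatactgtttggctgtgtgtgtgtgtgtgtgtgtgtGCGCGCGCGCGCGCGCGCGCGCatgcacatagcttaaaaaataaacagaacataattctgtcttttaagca
Rora, run under second peak: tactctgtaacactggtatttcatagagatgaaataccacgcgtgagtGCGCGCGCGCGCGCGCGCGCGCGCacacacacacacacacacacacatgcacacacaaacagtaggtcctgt
Wwox, run under first peak: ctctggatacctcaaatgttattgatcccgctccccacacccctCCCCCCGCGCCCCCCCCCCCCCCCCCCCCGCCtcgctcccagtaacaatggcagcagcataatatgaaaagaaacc
Wwox, run under second peak: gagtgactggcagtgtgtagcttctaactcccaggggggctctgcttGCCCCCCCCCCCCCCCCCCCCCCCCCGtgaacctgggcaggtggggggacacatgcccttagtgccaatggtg
The positions are chr4:103335542-103335661 and chr4:104366381-104366500 (plus strand), chr9:68603600-68603719 and chr9:69106089-69106208 (plus), and chr8:117431648-117431767 and chr8:117711038-117711157 (plus). Dab1 and Rora carry alternating runs of 19 to 24 bases beside CA repeats, and Wwox carries runs of mostly C without one. Reads at the summit were 16 and 19 in Dab1, 21 and 26 in Rora, and 25 at each of both sites in Wwox. The Wwox summits lay 468.1 and 747.6 kb from the gene start.

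**Figure D4:**
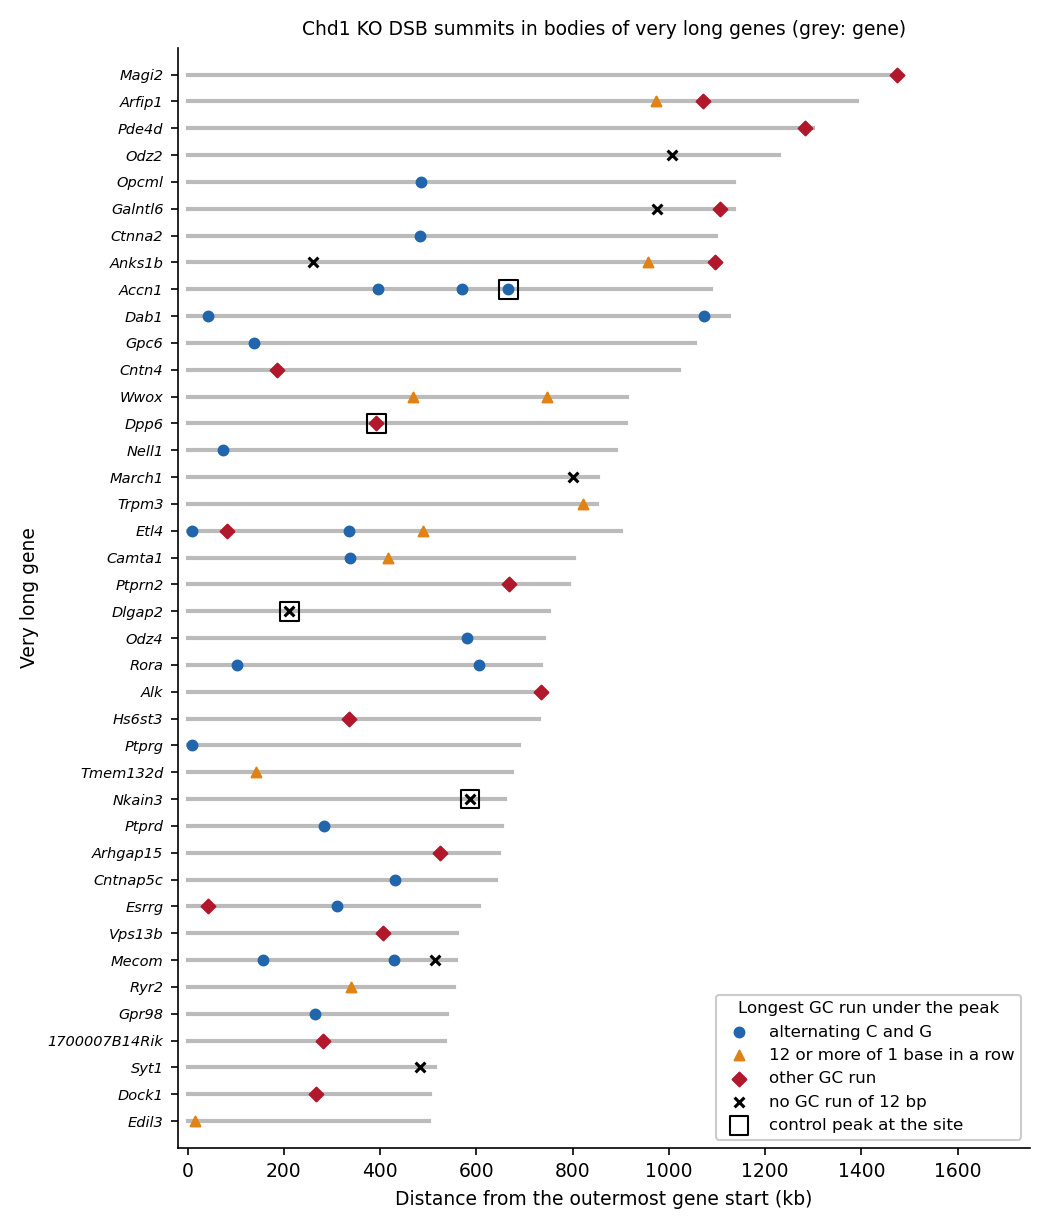
Position of 56 Chd1 KO body summits (x axis, distance from the outermost gene start in kb) in 40 very long genes (y axis, ordered by longest transcript, without Gm20388 and Fgfr2), with grey lines for the annotated gene. Symbols give the kind of longest GC run under the peak, 22 alternating, 10 with 12 or more of 1 base, 16 other and 8 without a run of 12 bp, and open squares mark the 4 sites with a control peak.

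Genes with several body summits were few. Etl4 had 4, at 8.414, 82.49, 335.6 and 489 kb from the start with 19 to 25 reads, and Anks1b and Accn1 (now Asic2) had 3 each. The summits of Anks1b, at 261.6, 955.9 and 1096 kb, had 17, 24 and 19 reads. Mecom, a zinc finger regulator that falls outside the rule for named genes and was chosen after its values were seen, also had 3, with 21, 27 and 29 reads.

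The control list reached 4 of the 163 very long genes, each at 1 site in the body. They were the acid-sensing ion channel Accn1, the potassium channel subunit Dpp6, the scaffold Dlgap2 and the sodium pump interactor Nkain3. Among all autosomal protein-coding genes, these included, 7 had a control body summit (0.0327%). Per Mb of gene span, control summits numbered 0.0282 in very long genes (exact Poisson interval 0.00767 to 0.0721) and 0.00747 in all genes (0.00301 to 0.0154). In genes of 200 to 500 kb the density was 0.00463 (0.000117 to 0.0258). The difference rests on few summits and was not tested. Each of the 4 sites also had a Chd1 KO peak. In Dpp6 there were 56 reads in Chd1 KO (42.3 to 72.7) and 55 in control (41.4 to 71.6), with fold enrichments of 10.2 and 10.9. In Nkain3 there were 32 and 30 reads, and in Dlgap2 21 and 26. In Accn1 the values were 46 (33.7 to 61.4) and 23 (14.6 to 34.5), with intervals that overlap slightly. These reads are not scaled to the depth of the combined libraries.

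The sequences at the shared sites, each in an intron, follow in the same form. They are centred on the longest run or, where there is none, on the Chd1 KO summit. In Dlgap2 the control summit lies outside the stretch.
Dpp6: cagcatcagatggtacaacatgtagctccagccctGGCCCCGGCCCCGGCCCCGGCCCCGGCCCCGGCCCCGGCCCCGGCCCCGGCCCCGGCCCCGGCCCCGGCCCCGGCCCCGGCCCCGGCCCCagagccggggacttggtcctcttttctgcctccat
Accn1: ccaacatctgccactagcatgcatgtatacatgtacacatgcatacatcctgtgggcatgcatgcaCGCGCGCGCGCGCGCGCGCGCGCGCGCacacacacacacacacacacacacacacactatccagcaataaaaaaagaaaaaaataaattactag
Nkain3: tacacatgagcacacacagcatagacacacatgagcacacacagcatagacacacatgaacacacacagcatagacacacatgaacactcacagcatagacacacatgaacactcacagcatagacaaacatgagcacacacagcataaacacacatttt
Dlgap2: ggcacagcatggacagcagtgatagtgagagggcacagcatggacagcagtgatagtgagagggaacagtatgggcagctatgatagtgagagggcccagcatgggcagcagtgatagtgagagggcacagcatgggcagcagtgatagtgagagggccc
The positions are chr5:27536073-27536232 (plus strand), chr11:81115689-81115848 (minus), chr4:20118961-20119120 (minus) and chr8:14307007-14307166 (plus). Dpp6 carries a run of 90 bases of G and C, the longest under any autosomal Chd1 KO peak, and Accn1 an alternating run of 27 bases beside a CA repeat. The stretches from Nkain3 and Dlgap2 hold no run of 12 bases and are tandem repeats, which matched themselves at 91.9% of positions when shifted by 25 bases and at 90.7% when shifted by 31.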

How the data were processed

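Peak lists from DSB-seq of mouse ES cells, 2 replicates of Chd1 KO and 2 of control, were analyzed. Per the methods of the study and the labels, the authors used Bowtie2 and the build mm9 for alignment, discarded duplicates and poorly mapped reads, and ran MACS2 on the merged replicates of each genotype (q-value cutoff 0.05, read extension 200 bp). Blacklisted regions were then filtered. The deposited columns used were the peak position, the summit offset, the fold enrichment and −log10 of the p-value and the q-value. The fold enrichment is a ratio to the local background within that library, with a constant added to both terms. The deposited integer score was not used.

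The read number at each summit was solved for with the deposited fold enrichment and p-value, with the largest misfit to the deposited −log10 p-value at 7.25e-05 in Chd1 KO and 0.000135 in control. Depth was implied from the lowest local background, the read extension and the mouse genome size that MACS2 uses. Assignment and recovery were tested on simulated data. A summit was assigned to every gene that has a protein-coding TSS within 1 kb, and otherwise to the body of each gene that contains it. Genes with a span of at least 500 kb were taken from GENCODE M1, whose build NCBIM37 is mm9, and 162 of 163 symbols were matched to RefSeq, 17 of them under a newer symbol. Shares have Wilson, differences Newcombe and densities exact Poisson intervals at 95%. No test across samples was possible with 1 list per genotype. Python 3.11.15, NumPy 2.4.6, SciPy 1.17.1, pandas 2.3.3, pysam 0.24.0, samtools 1.23.1 and Matplotlib 3.10.9 were used.

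The genes named were the 10 with the highest TSS fold enrichment, the 5 with the most body summits, the 5 longest, the 2 on each side of the threshold, the fragile-site list, those with a control summit, the strongest of each group, and the 2 with the lowest promoter GC content among those with a TSS summit and the 2 with the highest among those without. Other names belong to a counted group. A few genes that the rule selects are not reported here and are left out of the plots by gene, while counts include them. The members and lists were chosen with earlier results of these data known. Other files of the series were not used here. Alternatives changed the q-value cutoff, the peak position, the window, the TSSs, the minimum span and the genes left out.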

Additional observations from a re-analysis of the deposited data

How the results depend on the processing

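The number of very long genes with a Chd1 KO summit at a TSS, 45, lay between 35 and 51 under 11 of 16 alternatives. It was 74 of 268 genes (27.6%) at a minimum span of 400 kb, 20 of 79 (25.3%) at 750 kb, 20 of 86 (23.3%) where the mean transcript span had to reach 500 kb and 9 of 24 (37.5%) in genes with 1 TSS, where fewer or more genes enter. With a window from 1 kb upstream to 100 bp downstream it was 23 (14.1%), against 9.85% of all genes, since 33 of the 49 summits lie downstream. Genes with a body summit, 43 in the report, numbered 71, 23 and 23 at the 400 kb, 750 kb and mean-span settings, and 40 to 47 otherwise. The 108 body summits became 69 with the mean span and 57 without Gm20388 and Fgfr2, an alternative added after the data were seen, which also lowered the density from 0.76 to 0.423 per Mb. Control summits numbered 3 or 4 throughout. Restricting Chd1 KO peaks to the −log10 p-value of the weakest control peak, also added afterwards, left 42 genes with a TSS summit (25.8%, against 14.6% of all genes).

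No paired analysis was possible because replicates had been merged when peaks were called. Peaks below 13 reads were not listed, and the spread between replicates could not be measured.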

Other observations

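Body peaks of very long genes were as strong as other peaks. Without Gm20388 and Fgfr2, their fold enrichment had a median of 5.18 (range 3.59 to 10.2) and their reads a median of 22, against 4.63 and 21 for the body peaks of other genes. By kind of longest GC run, the median reads were 21.5 in the 22 alternating, 24.5 in the 10 with 12 or more of 1 base, 20.0 in the 17 other and 20.5 in the 8 without a run of 12 bp. The peaks without a run include the one in Nkain3, whose fold enrichment of 7.89 was exceeded only by those in Dpp6 (10.2) and Accn1 (9.48) among these 57. The control list also held a peak at each of these sites. Its reads were 30 in Nkain3, 55 in Dpp6 and 23 in Accn1, against 32, 56 and 46 in Chd1 KO.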
